A study of Oryza sativa Japonica Group with 36 samples.

Results

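The members described here are 34 probe sets for bHLH (basic helix-loop-helix), homeobox (HB) and bZIP (basic leucine zipper) transcription factors, of 57258 probe sets on a rice genome array after its control probe sets were set aside. They are all the entries with those family names (21 bHLH, 7 HB and 6 bZIP) among the 200 transcription factors that the study listed as changed by cold or different between its lines. The members were thus selected on the fold changes of these same arrays, cold against control within a line and K354 against C418, so the changes against control given below describe what the choice already contains, and no p-value is given for a change of a member. By the study's list, 20 members were induced in both lines, 3 in K354 alone and 7 in C418 alone, 1 was repressed in both lines, 1 in K354 alone and 1 in C418 alone, and 1 did not respond to cold but was higher in K354.

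The arrays came from whole shoots of rice seedlings at the 3-leaf stage. K354 is a cold tolerant introgression line (BC2F6), bred by backcrossing the indica variety Bg300 into C418, so it carries donor segments in a C418 background, and C418 is the cold sensitive japonica parent. Each line was sampled after 2, 6, 12, 24 and 48 h at 4 °C and as a control kept at 25 °C, with 3 arrays from separate pots in each of the 12 groups (36 arrays). The control samples combined collections made at 2 h and at 24 h, so no control matches the time of day of a cold sample. Values are intensities on a linear scale, normalized by the authors. The median over all probe sets lay between 55.5 and 67.9 on the 36 arrays and the 25th percentile between 26.0 and 30.0, and a probe set below that percentile on all 3 arrays of a group is called dim here. The shoot label was checked with the genes of photosynthesis and nitrogen assimilation CAB2R, PSAH, PSAG and GLN2 (4 genes, 7 probe sets), all of which lay above the median of the array on each of the 36 arrays. Their summed intensity ranged from 29390 to 49054 on K354 arrays and from 12337 to 47813 on C418 arrays. Of the root genes, PHT1-6 was dim in 10 and LSI2 in 11 of the 12 groups, while LSI1 lay above the array median on all 36 arrays. The lowest 3 shoot sums of all arrays were those of C418 at 48 h.

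The bHLH, homeobox and bZIP families bind DNA as dimers or through a helix-turn-helix fold, and each holds both activators and repressors. In plants, bHLH proteins include ICE1, which in Arabidopsis activates the CBF/DREB1 genes in the cold, the MYC factors of jasmonate signalling and the regulators of iron uptake. Many bZIP proteins act in abscisic acid and defence responses, and homeobox genes of the HD-Zip and KNOX classes govern growth, leaf form and meristems.

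A call in this text means an adjusted p under 0.05 from limma, with Benjamini-Hochberg adjustment over all 57258 probe sets, and a fold above 5. Changes are given as log2 of the ratio, from 3 arrays against 3, with the standard error (SE) of the fit. The SE rests on 1 spread per probe set, shared by all 12 groups. It is thus the same for each change of a gene and does not show the spread of the arrays compared. In K354, no member was called at 2 h or 6 h, 4 were called higher at 12 h, 17 at 24 h and 19 at 48 h, beside 0.0716%, 0.327%, 0.709%, 1.86% and 2.18% of all probe sets. In C418, 2 members were called higher at 2 h, 3 at 6 h, 4 at 12 h, 17 at 24 h and 25 at 48 h, beside 0.327%, 0.44%, 0.746%, 1.65% and 2.67% of all probe sets. Called lower in K354 were 0, 0, 0, 1 and 2 members at these times, beside 0.0786%, 0.124%, 0.185%, 0.313% and 0.568% of all probe sets. In C418 the lower calls were 0, 0, 1, 1 and 2, beside 0.0751%, 0.0978%, 0.197%, 0.341% and 1.01%. These contrasts chose the members, so nothing is read from the gap to the background. The median log2 change of the members was 2.38 in K354 and 2.81 in C418 at 48 h, where the median over all probe sets was -0.03 and -0.02. With dim values set to the 25th percentile of their array, the medians of the members were 2.31 and 2.66.

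The count at 48 h depended on what the arrays were scaled to. Scaled to the hybridization controls of the array, which at 48 h stood 0.67 (K354) and 0.81 (C418) higher in log2 than on the 25 °C arrays, 7 members were called higher in K354 and 14 in C418. Scaled to the poly-A controls, which stood 1.20 and 1.30 higher, the counts were 2 and 9. The share of higher among all called members was 90.5% in K354 and 92.6% in C418 as deposited, 77.8% and 82.4% on the hybridization scale and 50.0% and 75.0% on the poly-A scale. Members that stayed called higher on the poly-A scale were LOC_Os01g72370 and HOS66 in both lines, and in C418 also LOC_Os04g23550, LOC_Os01g50940, BHLH148, LOC_Os01g09990, LOC_Os02g14910, BCL1 and the ICE1-like gene.

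**Figure D1:**
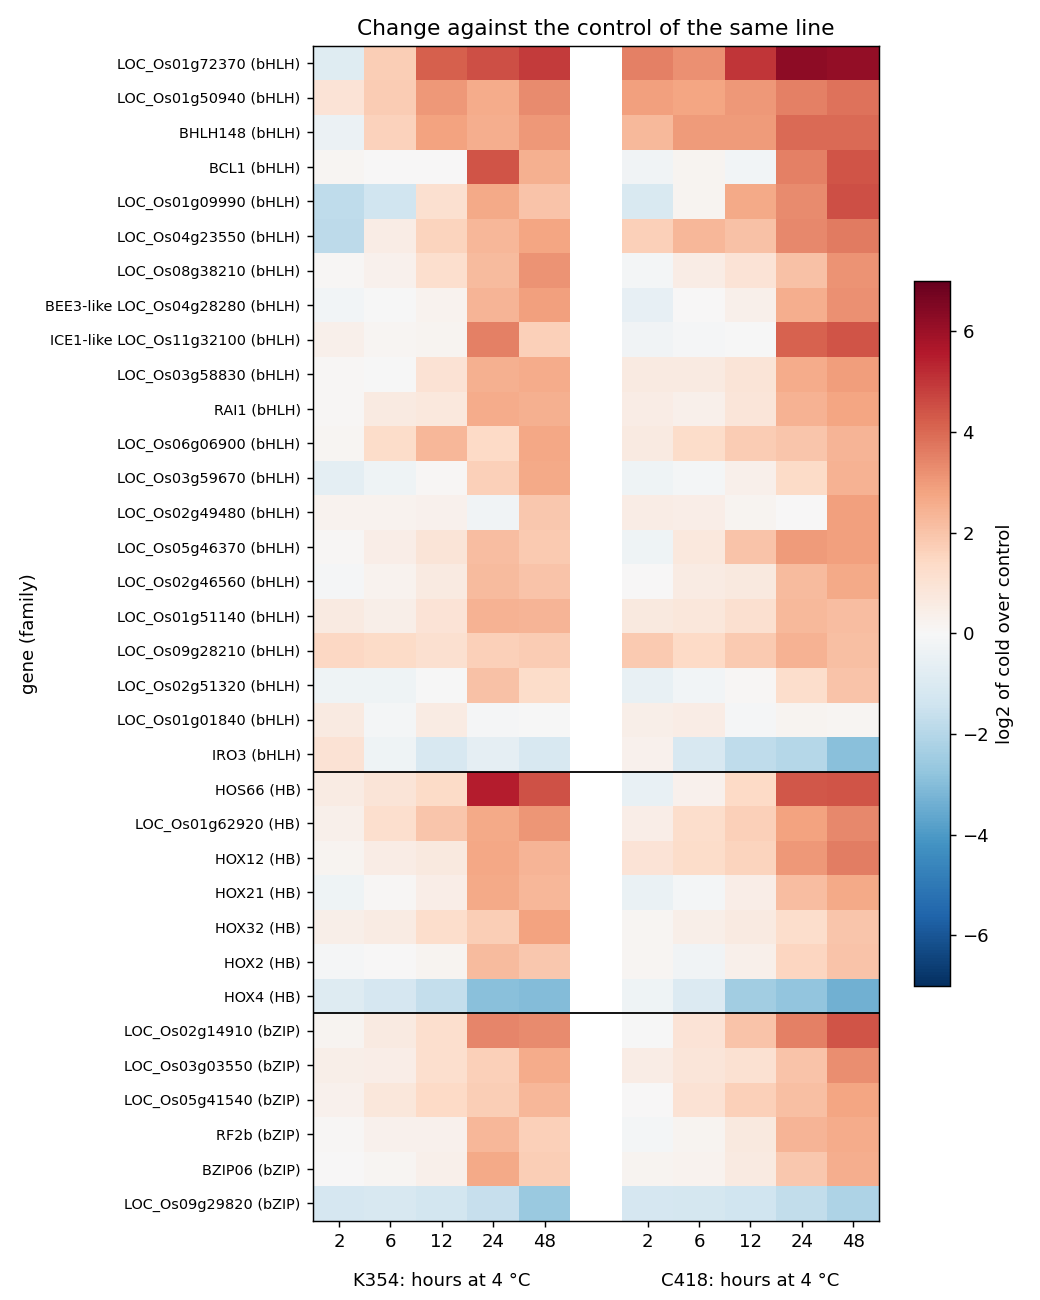
Log2 change of intensity in cold against the control of the same line (colour) for the 34 members (rows, grouped as bHLH, HB and bZIP), with 2 to 48 h in K354 on the left and in C418 on the right; each cell is the mean of 3 arrays minus the mean of 3 control arrays, dim groups included at their measured values. Most rows stay near white to 6 h and turn red at 24 h and 48 h, while LOC_Os01g72370, LOC_Os01g50940 and BHLH148 are red from 2 h in C418, and HOX4, LOC_Os09g29820 and, in C418, IRO3 are blue late in the cold.

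By first call, the members fell into early and late sets. In K354, 4 members were first called at 12 h, 15 at 24 h and 6 at 48 h, and 9 were never called. In C418, 2 were first called at 2 h, 1 at 6 h, 2 at 12 h, 13 at 24 h and 10 at 48 h, and 6 were never called. The largest change of the 5 times fell at 48 h for 17 members in K354 and 29 in C418, and at 24 h for 15 members in K354 and 4 in C418. Over all times, 22 members were called in both lines, 3 in K354 alone (HOX32, LOC_Os01g51140 and LOC_Os09g29820) and 6 in C418 alone (IRO3, LOC_Os02g46560, LOC_Os02g49480, LOC_Os05g46370, LOC_Os09g28210 and RF2b), and 3 in neither (HOX2, LOC_Os02g51320 and LOC_Os01g01840). Some of these splits rested on small gaps around the 5-fold threshold: RF2b peaked at 4.97-fold in K354 and 6.07-fold in C418, and LOC_Os01g51140 at 5.50-fold in K354 and 4.89-fold in C418. Others were wider: LOC_Os02g49480 peaked at 3.67-fold in K354 and 7.28-fold in C418, and HOX32 at 6.97-fold in K354 and 3.86-fold in C418. Just outside the threshold lay HOX2 with 4.68-fold in K354, and just inside it LOC_Os05g41540 with 5.04-fold in K354 and LOC_Os06g06900 with 5.25-fold in C418. By name, the splits differed from the study's sections. The study listed BCL1, the ICE1-like gene and BZIP06 as induced in C418 alone, and here they were called in both lines. It listed HOX2 and LOC_Os02g51320 as induced in K354 alone, and here they were called in neither.

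The lines differed in the first hours of cold for a quartet of bHLH genes: LOC_Os01g72370, LOC_Os04g23550, BHLH148 (LOC_Os03g53020) and LOC_Os01g50940. BHLH148 is known in rice as a partner of JAZ repressors of jasmonate signalling that affects drought tolerance.

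LOC_Os01g72370 read 90.7, 131 and 162 in controls, 73.3, 56.6 and 78.7 at 2 h, 663, 274 and 371 at 6 h, 2374, 1952 and 2369 at 12 h, 3991, 3042 and 1932 at 24 h and 3831, 3472 and 3881 at 48 h in K354. The same gene read 58.7, 46.9 and 63.9 in controls, 366, 853 and 825 at 2 h, 674, 1204 and 173 at 6 h, 1142, 1966 and 2543 at 12 h, 3536, 4349.8 and 5457 at 24 h and 3803, 3678 and 4603 at 48 h in C418. At 2 h no K354 array reached the lowest C418 array, while among controls every K354 array exceeded every C418 array, and from 6 h the ranges of the lines overlapped. Its log2 change at 2 h was -0.85 ± 0.45 in K354 and 3.51 ± 0.45 in C418, and at 48 h it was 4.91 ± 0.45 and 6.16 ± 0.45. The changes in C418 at 24 h (6.29 ± 0.45) and 48 h were the largest measured for any member at any time in either line.

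LOC_Os04g23550 read 342, 305 and 319 in controls, 81.0, 73.8 and 120.2 at 2 h, 599.8, 369 and 421 at 6 h, 848, 900.1 and 1112 at 12 h, 1961, 1427 and 1504 at 24 h and 2006, 2110.5 and 2376 at 48 h in K354. It read 149, 126 and 171 in controls, 215, 657 and 747 at 2 h, 731, 1851 and 293 at 6 h, 457, 603 and 822 at 12 h, 1147, 1309.6 and 2266 at 24 h and 2005, 1649 and 1926 at 48 h in C418. All K354 arrays at 2 h lay below the K354 controls, and all C418 arrays at 2 h lay above the C418 controls. Its log2 change was -1.84 ± 0.42 at 2 h and 2.75 ± 0.42 at 48 h in K354, and 1.68 ± 0.42 at 2 h and 3.65 ± 0.42 at 48 h in C418. It was called at 24 h and 48 h in both lines, and at no earlier time.

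BHLH148 read 422, 451 and 525 in controls, 315, 315 and 421 at 2 h, 1602, 1114 and 1528 at 6 h, 2723, 3309.9 and 3717 at 12 h, 3144, 3307 and 1927 at 24 h and 3617, 3786 and 3834 at 48 h in K354. In C418 it read 258, 247 and 280.1 in controls, 599.6, 1586 and 2092 at 2 h, 2321, 3152 and 1207 at 6 h, 1572, 2069.9 and 2722 at 12 h, 3451, 3567 and 5247 at 24 h and 3827, 3843 and 4749 at 48 h. Here too the 2 h arrays of the lines did not overlap, with K354 lower, and the controls did not overlap, with K354 higher. The log2 change of BHLH148 was -0.42 ± 0.32 in K354 and 2.27 ± 0.32 in C418 at 2 h, and 3.01 ± 0.32 and 3.98 ± 0.32 at 48 h.

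LOC_Os01g50940 read 197, 193 and 249 in controls, 293, 467 and 511 at 2 h, 844, 616 and 759 at 6 h, 1604, 1811 and 1767 at 12 h, 1622, 1414 and 938 at 24 h and 2167, 2229 and 1964 at 48 h in K354. The C418 arrays read 113, 121 and 131 in controls, 635, 992 and 1154 at 2 h, 984, 1149 and 517 at 6 h, 829, 1078 and 1136 at 12 h, 1229, 1332 and 1630.1 at 24 h and 1682, 1513 and 1944 at 48 h for this gene. It was the one member of the quartet whose 2 h arrays all exceeded the controls in both lines, and the K354 arrays at 2 h lay below those of C418. The log2 change was 0.96 ± 0.24 in K354, which was not called, and 2.89 ± 0.24 in C418. At 12 h it was 3.03 ± 0.24 in K354 and 3.05 ± 0.24 in C418.

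**Figure D2:**
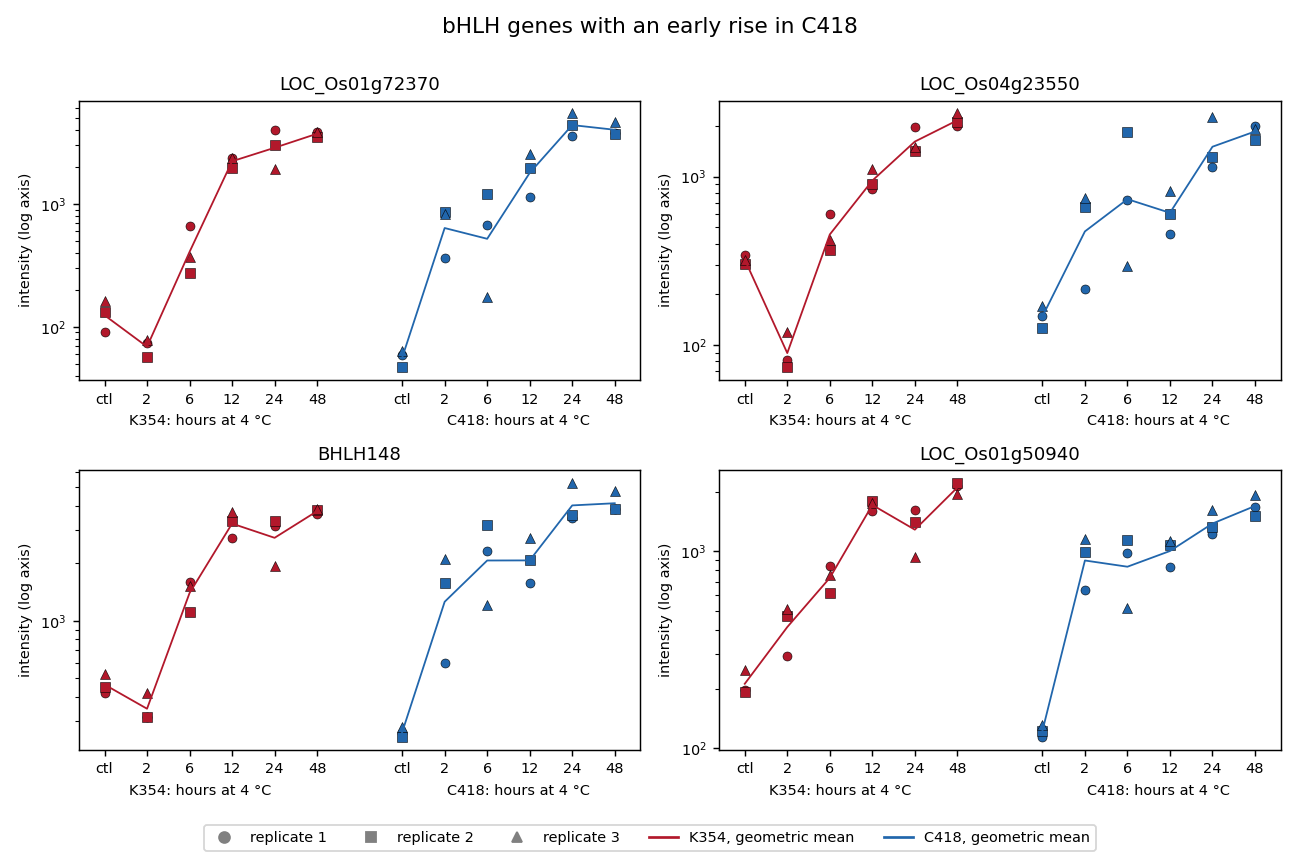
Intensity (log axis) of LOC_Os01g72370, LOC_Os04g23550, BHLH148 and LOC_Os01g50940 on each of the 36 arrays, with control (ctl) to 48 h of cold in K354 (left) and C418 (right); symbols are replicates and lines join the geometric means of 3 arrays. In C418 all 4 genes lie above their controls at 2 h, with replicate 1 at 2 h and replicate 3 at 6 h below the other arrays of their groups; in K354 only LOC_Os01g50940 does.

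The difference between the responses was tested directly as the response of K354 minus that of C418, and here the adjusted p alone decided a call. At 2 h it was called for these 4 genes and no other member, all negative, beside 1.24% of all probe sets called negative and 0.382% called positive. The log2 differences were -4.36 ± 0.63 for LOC_Os01g72370, -3.52 ± 0.60 for LOC_Os04g23550, -2.69 ± 0.46 for BHLH148 and -1.92 ± 0.35 for LOC_Os01g50940. Part of each came from the controls, where K354 stood higher by 1.15 ± 0.45, 1.12 ± 0.42, 0.83 ± 0.32 and 0.80 ± 0.24 in log2. No member was called at 6, 12 or 24 h, beside 0.141%, 0.646% and 0.686% of all probe sets called positive and 0.25%, 1.12% and 0.873% called negative. The 24 h result turned on K354 at 24 h replicate 2, without which HOX2 and BZIP06 were called positive, the controls of BZIP06 being dim in both lines. The 6 h result turned on C418 at 6 h replicate 3, which read 173 for LOC_Os01g72370 beside 674 and 1204 on the other arrays of its group: without that array 3 of the quartet, LOC_Os01g72370, LOC_Os04g23550 and LOC_Os01g50940, were called negative at 6 h. The 2 h count stayed at 4 without any 1 of the C418 arrays at 2 h. These responses share their arrays with the choice of the list, so the counts are a description of it.

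AOS2, an allene oxide synthase of jasmonate synthesis and the only gene of the jasmonate list that matched a single gene with a probe set, had log2 changes at 2 h of 0.77 ± 0.16 in K354 and 1.64 ± 0.16 in C418, and at 48 h of 2.44 ± 0.16 and 2.24 ± 0.16. The cold-inducible activators DREB1A and DREB1B were called higher at every time in both lines, unlike the quartet. Their log2 changes at 2 h were 3.57 ± 0.18 and 3.99 ± 0.21 in K354, and 4.43 ± 0.18 and 4.70 ± 0.21 in C418. For DREB1C, 2 of the 3 probe sets of the annotation were dim in all 12 groups. The third was dim in no group and was not called at any time. It read 62.1, 48.8 and 52.3 at 2 h against 60.2, 77.6 and 66.5 in controls of K354, and 59.9, 58.8 and 54.3 against 63.9, 56.1 and 60.6 in C418. A further probe set, which the study's lists place at the DREB1C locus LOC_Os06g03670 and which was added after values of these data had been seen, was called higher at every time in both lines. It read 157, 353 and 473 at 2 h against 38.5, 50.4 and 72.8 in controls of K354, and 803, 1291 and 1639 against 34.05, 38.4 and 40.4 in C418, with log2 changes at 2 h of 2.51 ± 0.29 in K354 and 4.99 ± 0.29 in C418.

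LOC_Os09g28210, a further bHLH gene, was also higher than in controls at 2 h, in both lines as for LOC_Os01g50940. It read 1882, 2128 and 1751 at 2 h against 558, 633 and 997 in controls of K354, and 1492, 1653 and 2038 against 426, 524 and 478 in C418. The cold and control arrays of each line did not overlap, but the changes of 1.44 ± 0.21 and 1.85 ± 0.21 in log2 were under 5-fold, and the gene was called only in C418 at 24 h (2.46 ± 0.21). LOC_Os06g06900 was called at 12 h (2.34 ± 0.50) and 48 h (2.71 ± 0.50) in K354 and at 48 h (2.39 ± 0.50) in C418, with a wide spread at 6 h: it read 610.0, 143 and 484 in K354 and 593, 912 and 145 in C418.

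LOC_Os01g09990 was dim at 2 h and 6 h in both lines and brighter later. It read 23.3, 19.2 and 81.4 in controls, 7.21, 6.64 and 18.9 at 2 h, 14.7, 11.5 and 12.1 at 6 h, 77.3, 80.9 and 60.3 at 12 h, 275, 162 and 195 at 24 h and 109.6, 137 and 149 at 48 h in K354. In C418 it read 7.17, 5.33 and 49.7 in controls, 10.0, 5.11 and 3.97 at 2 h, 11.9, 12.2 and 19.1 at 6 h, 108, 55.4 and 75.2 at 12 h, 102, 74.6 and 253 at 24 h and 609, 166 and 225 at 48 h. Replicate 3 stood above the other control arrays in both lines, and replicate 1 stood apart at 48 h in C418. The log2 change at 48 h was 1.98 ± 0.62 in K354, not called, and 4.52 ± 0.62 in C418, and the difference of responses of -2.54 ± 0.88 was not called. A second probe set of the gene, one of the kind that can also take up transcripts of related genes, read 133, 164 and 174 at 48 h in K354 and 609, 157 and 236 in C418. Its change at 48 h in C418 was smaller, 3.68 ± 0.48, as was the difference of responses, -1.67 ± 0.69, with 2.02 ± 0.48 in K354.

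A larger group of members was highest at 24 h or 48 h. It holds the ICE1-like gene LOC_Os11g32100, annotated in the study's list as an ICE1 homologue, BCL1 (LOC_Os08g42470), BZIP06 (LOC_Os01g55150) and HOS66 (LOC_Os03g03164), a knotted1-type homeobox gene. DREB1A and DREB1B, rice genes of the CBF/DREB1 family, were called higher at 2 h. Whether the ICE1-like gene acts on them was not tested.

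The ICE1-like gene read 27.1, 23.9 and 35.6 in controls, 43.5, 33.5 and 32.4 at 2 h, 30.5, 35.6 and 28.7 at 6 h, 30.7, 40.2 and 29.2 at 12 h, 782, 55.9 and 835 at 24 h and 41.6, 369 and 48.0 at 48 h in K354. It read 23.3, 29.1 and 28.1 in controls, 16.9, 20.8 and 32.2 at 2 h, 28.4, 25.0 and 23.2 at 6 h, 21.6, 26.2 and 32.1 at 12 h, 360.2, 809.6 and 353 at 24 h and 426, 729 and 553 at 48 h in C418. All 6 C418 arrays of 24 h and 48 h read 353 or more, whereas in K354 only replicates 1 and 3 at 24 h and replicate 2 at 48 h did, and the other K354 arrays of those times lay at 41.6 to 55.9, where the highest K354 control read 35.6. The log2 change at 24 h was 3.54 ± 0.67 in K354 and 4.13 ± 0.67 in C418, and at 48 h 1.67 ± 0.67, not called, in K354 and 4.38 ± 0.67 in C418. K354 was called lower than C418 at 48 h for this gene (-2.62 ± 0.67), a call that was lost without replicate 1 or without replicate 3 of K354 at 48 h.

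BCL1 followed the same arrays. It was dim in controls and to 12 h in both lines, and then read 761, 42.9 and 1091 at 24 h and 20.9, 459.6 and 73.6 at 48 h in K354, against 154, 529.7 and 80.9 and 290.5, 456 and 310.5 in C418. Set against the 25th percentile of the dim control arrays, its level was at least 11.6-fold higher at 24 h and at least 3.14-fold higher at 48 h in K354, and at least 6.72-fold and 12.4-fold higher in C418. The SE of its log2 changes, 0.83, was the largest of all members.

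BZIP06 read 265, 34.7 and 312 at 24 h and 44.0, 194 and 50.5 at 48 h in K354 over dim controls of 19.3, 23.5 and 25.1, and 51.9, 136 and 62.6 and 125, 128 and 113 in C418 over dim controls of 18.1, 24.9 and 20.4. The level was at least 2.66-fold higher at 48 h in K354 and at least 4.36-fold higher at 48 h in C418. LOC_Os02g51320, a bHLH gene whose changes stayed under 5-fold, split in the same way at 24 h (490.1, 97.3 and 651 in K354) and at 48 h (95.9, 610.4 and 117 in K354).

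HOS66 read 15.5, 21.3 and 56.7 in controls, 41.8, 53.4 and 29.3 at 2 h, 22.3, 157 and 33.3 at 6 h, 21.7, 194 and 75.6 at 12 h, 1248, 922 and 1460.4 at 24 h and 216, 727 and 1202 at 48 h in K354. In C418, HOS66 read 31.6, 50.1 and 43.4 in controls, 20.6, 24.9 and 47.9 at 2 h, 76.4, 60.4 and 28.6 at 6 h, 73.5, 86.0 and 195 at 12 h, 1313, 857 and 504 at 24 h and 769.8, 1152 and 761 at 48 h. At 24 h and 48 h all cold arrays of both lines exceeded all controls, and the log2 changes were 5.49 ± 0.69 and 4.43 ± 0.69 in K354 and 4.34 ± 0.69 and 4.42 ± 0.69 in C418, the largest of the homeobox members in either line. Among K354 arrays at 6 h and 12 h, replicate 2 alone stood at 157 and 194.

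The bZIP gene LOC_Os02g14910 read 743, 218 and 804 at 24 h and 351, 719.9 and 399 at 48 h in K354, against controls of 45.4, 48.4 and 46.0, and 692, 677 and 563 and 1142, 1362 and 1135 in C418, against controls of 52.9, 58.2 and 57.7. It was the bZIP member with the largest mean change at 48 h, with log2 changes of 3.32 ± 0.33 in K354 and 4.43 ± 0.33 in C418. In K354 replicate 2 was the lowest array at 24 h and the highest at 48 h.

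The remaining members of the late group were RF2b, a bZIP activator first described for binding the promoter of a rice virus, the homeobox genes HOX21, HOX12 and HOX2, and the bHLH genes RAI1, which acts in rice immunity, the BEE3-like LOC_Os04g28280, LOC_Os03g58830, LOC_Os05g46370, LOC_Os02g46560 and LOC_Os01g51140. HOX12, which affects panicle growth in rice, had the largest of their measured changes at 48 h in C418 (3.59 ± 0.41) with 2.35 ± 0.41 in K354. The BEE3-like gene, named for an Arabidopsis factor of brassinosteroid response, was dim in the controls of both lines, and at 48 h it was at least 4.72-fold higher in K354 and at least 6.12-fold higher in C418. At 48 h in K354 the log2 changes were 2.51 ± 0.46 for RAI1, 2.57 ± 0.37 for LOC_Os03g58830, 1.81 ± 0.48 for LOC_Os05g46370, 1.97 ± 0.29 for LOC_Os02g46560, 2.31 ± 0.35 for HOX21 and 1.91 ± 0.26 for HOX2. In C418 they were 2.74 ± 0.46 for RAI1, 2.89 ± 0.48 for LOC_Os05g46370, 2.67 ± 0.29 for LOC_Os02g46560, 2.64 ± 0.35 for HOX21 and 2.00 ± 0.26 for HOX2. LOC_Os03g58830 was dim in C418 controls and at least 5.30-fold higher at 48 h in C418. Replicates differed widely for some of them in K354, where RAI1 read 81.8, 357 and 325 and LOC_Os05g46370 38.4, 136 and 240.3 at 48 h, replicate 1 being the lowest for both. The 2 probe sets of LOC_Os01g51140 disagreed: the listed probe set had log2 changes at 48 h of 2.41 ± 0.36 in K354 and 2.19 ± 0.36 in C418, and the other had -0.08 ± 0.13 and -0.37 ± 0.13.

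**Figure D3:**
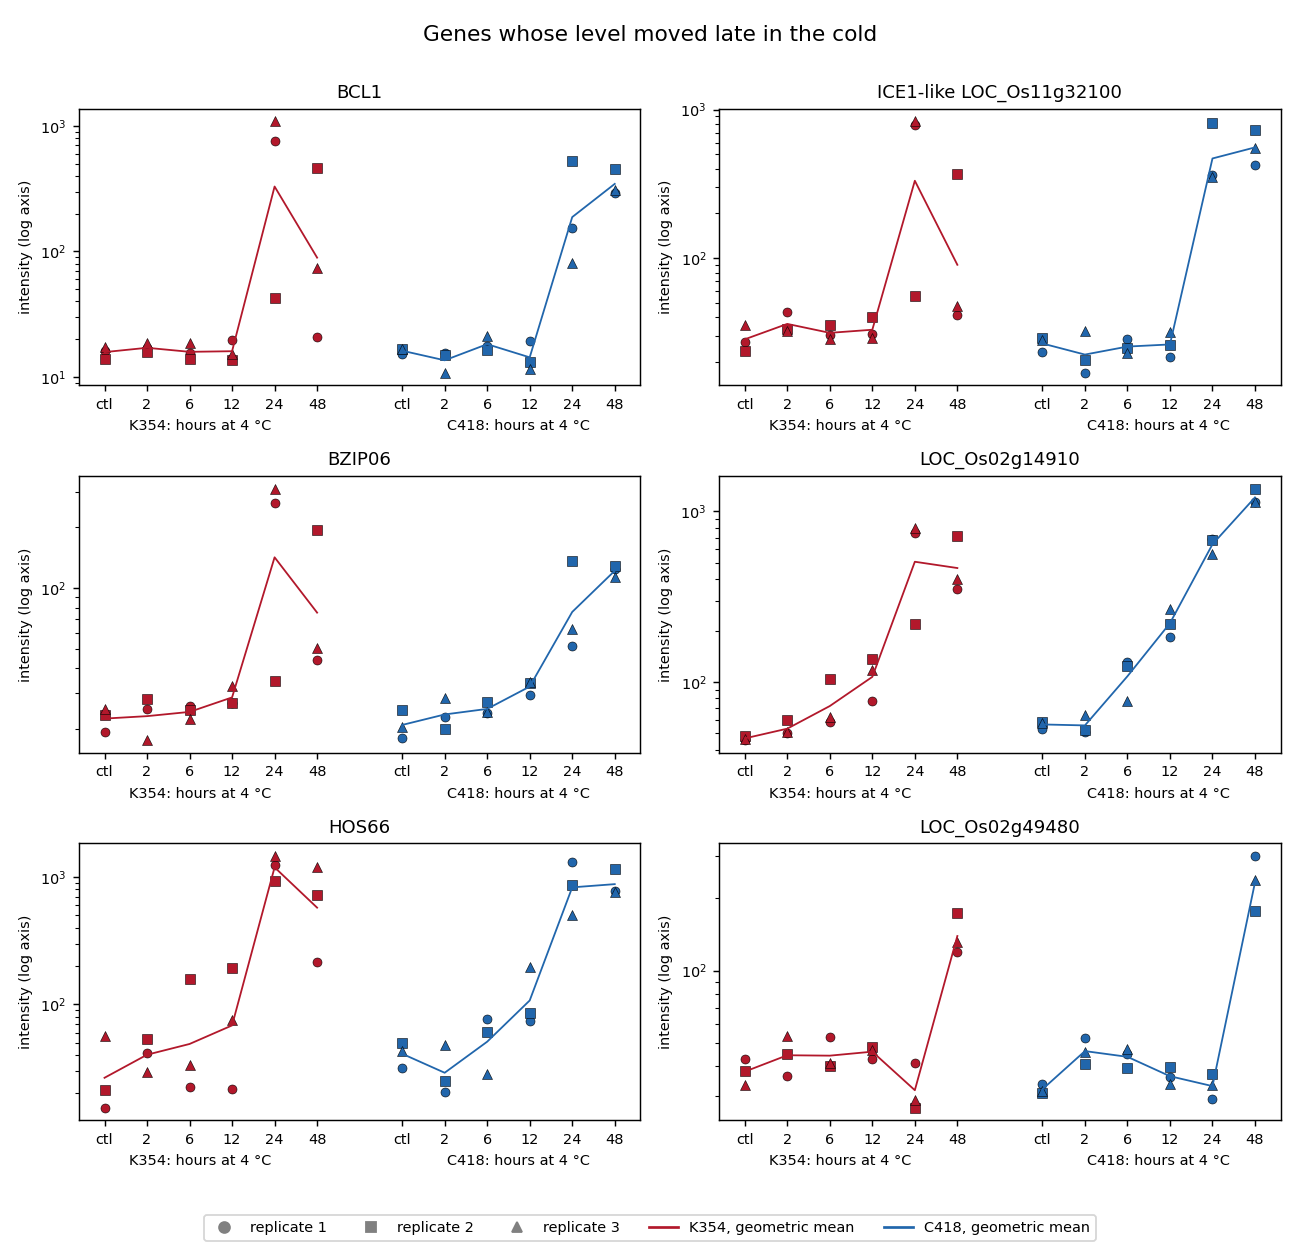
Intensity (log axis) of BCL1, the ICE1-like LOC_Os11g32100, BZIP06, LOC_Os02g14910, HOS66 and LOC_Os02g49480 on each array, with control (ctl) to 48 h of cold in K354 (left) and C418 (right); symbols are replicates and lines join geometric means. In K354, replicate 2 (square) of BCL1, the ICE1-like gene and BZIP06 is low at 24 h and high at 48 h while replicates 1 and 3 do the opposite, and LOC_Os02g49480 is flat to 24 h and high on all 48 h arrays.

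The arrays that were high or low for the ICE1-like gene were so for other members, too. After the group mean was taken off each array, the deviations of the ICE1-like gene over the 36 arrays correlated with those of BZIP06 (Pearson r 0.95), LOC_Os02g51320 (0.94), BCL1 (0.89), LOC_Os03g58830 (0.84), LOC_Os02g14910 (0.84) and HOX2 (0.83). The early quartet formed another such set, with r from 0.79 to 0.88 between its members, and RAI1, LOC_Os05g46370, LOC_Os01g51140 and HOS66 a further one (0.79 to 0.85). Of the 561 pairs of members, 26 (4.63%) had an r above 0.8, and of all pairs of probe sets on the array 0.074% did. These values are a description over arrays that the genes share, from sets named after the values were seen.

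Not every member followed those arrays. LOC_Os02g49480, a bHLH gene that was flat for the first day, read 41.0, 26.9 and 29.0 at 24 h and 119, 173 and 131 at 48 h in K354, and 29.3, 37.0 and 33.2 and 300.4, 177 and 238 in C418. Every 48 h array thus exceeded every 24 h array in both lines, K354 replicate 2 included. KNOX genes include ones that act in meristems. Of the 4 KNOX symbols looked up, OSH1, OSH71 and OSH43 had probe sets. Other genes with OSH symbols on the array, such as OSH3, OSH6 and OSH45, were not among those symbols, and their arrays were not compared here. The first probe set of OSH1 read 49.6, 24.0 and 60.2 at 24 h in K354 and 26.2, 70.1 and 27.9 at 24 h in C418, highest on K354 replicates 1 and 3 and on C418 replicate 2, on which the ICE1-like gene was also highest in each line. It did not follow the ICE1-like gene at 48 h in K354, where it was dim. The other probe set of OSH1 was dim in 11 of the 12 groups. At 24 h it read 27.9, 4.68 and 47.4 in K354, where it was not dim, and 4.85, 19.6 and 2.96 in C418. OSH71 read 67.7, 63.3 and 68.5 at 24 h in K354 and 46.8, 55.1 and 55.9 in C418. The first probe set of OSH43 read 45.7, 47.8 and 54.95 in K354 and 29.3, 38.6 and 34.7 in C418 at 24 h, and the second 101, 90.9 and 93.4 and 68.7, 83.4 and 76.7. Among these KNOX genes, the split of the K354 arrays at 24 h was thus seen for both probe sets of OSH1 and not for OSH71 or OSH43. The part of meristem tissue in these changes was not tested. In such bulk shoots, fewer cells of a type and less RNA per cell cannot be told apart.

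A second day of cold was compared with the first as 48 h minus 24 h within each line, without the controls and called with no fold. In K354, 7 members were called higher and 2 lower, beside 13.3% and 13.1% of all probe sets, and in C418, 8 higher and 2 lower, beside 11% and 13.3%. Called higher in both lines were HOX32, LOC_Os03g59670, LOC_Os08g38210, LOC_Os03g03550, LOC_Os05g41540 and LOC_Os02g49480, in K354 also LOC_Os01g50940 and in C418 also LOC_Os02g14910 and LOC_Os01g62920. Called lower were the ICE1-like gene (-1.88 ± 0.67) and LOC_Os09g29820 in K354, and LOC_Os09g29820 and HOX4 in C418. The lower count in K354 was 9 without replicate 2 at 24 h, when BCL1, BZIP06, HOX2, HOX21, RF2b, LOC_Os02g51320 and LOC_Os02g14910 joined, 6 without replicate 2 at 48 h, and 1 without any 1 of the other K354 arrays of those times. LOC_Os02g49480 had the largest step of any member, 2.13 ± 0.18 in K354 and 2.82 ± 0.18 in C418.

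The bHLH gene LOC_Os08g38210 read 240.4, 255 and 252 in controls, 268, 271 and 261 at 2 h, 283, 363 and 277 at 6 h, 456, 704 and 565 at 12 h, 1317, 999.8 and 1132 at 24 h and 2387, 2122 and 2214 at 48 h in K354, and the C418 values ended at 2386, 2065 and 2475 at 48 h. Its log2 change at 48 h was 3.17 ± 0.18 in K354 and 3.17 ± 0.18 in C418, the difference of the responses having an SE of 0.25. The bHLH gene LOC_Os03g59670 read 902, 1168 and 1211 at 48 h against 163, 183 and 177 in controls of K354, and 961, 979 and 1059 against 189.7, 190.4 and 166 in C418. For both genes, and for the bZIP genes LOC_Os05g41540 and LOC_Os03g03550 and the homeobox gene LOC_Os01g62920, all 48 h arrays exceeded all 12 h arrays in each line.

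LOC_Os05g41540 read 511, 489 and 531 in controls, 677, 602 and 601 at 2 h, 1146, 863 and 715 at 6 h, 1199, 1336 and 1571 at 12 h, 1889.5, 1767 and 1394 at 24 h and 2613, 2259.6 and 2872 at 48 h in K354. For LOC_Os05g41540, C418 had 475, 454 and 458 in controls, 473, 445 and 483 at 2 h, 951, 1279.9 and 697 at 6 h, 1496, 1462 and 1502 at 12 h, 2037, 1971 and 2025 at 24 h and 3276, 2852 and 3324 at 48 h. From 6 h on, all cold arrays of this gene lay above all controls in both lines. LOC_Os03g03550 read 174, 194 and 147 at 48 h against 28.4, 28.6 and 26.8 in controls of K354, and 219.7, 224 and 219 against dim controls of 22.3, 22.6 and 25.4 in C418, at least 7.91-fold higher. Its K354 arrays at 48 h all lay below those of C418. LOC_Os01g62920 read 167, 160.2 and 186 in controls, 230.2, 221 and 202 at 2 h, 329, 435 and 399 at 6 h, 529, 784 and 662 at 12 h, 1154, 883 and 1249 at 24 h and 1228, 1804 and 1460.1 at 48 h in K354. For LOC_Os01g62920, C418 had 194, 188 and 189 in controls, 208, 237 and 377 at 2 h, 528, 506 and 348 at 6 h, 466, 671 and 706 at 12 h, 1259.8, 1326 and 1361 at 24 h and 1738, 1970.5 and 2124 at 48 h. For these 3 genes no difference of responses was called at any time. At 48 h it was -0.43 ± 0.22 for LOC_Os05g41540 and -0.23 ± 0.27 for LOC_Os01g62920 in log2, and the dim C418 controls of LOC_Os03g03550 leave no value for that gene.

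HOX32 (LOC_Os03g43930), a homeobox gene of the HD-Zip III class that acts in leaf form, was the only member with a called positive difference of responses over all arrays. It read 125, 114 and 97.4 in controls, 153, 147 and 144 at 2 h, 176, 157 and 162 at 6 h, 223, 265 and 309 at 12 h, 403, 295 and 419.6 at 24 h and 823, 779 and 734 at 48 h in K354. It read 72.0, 68.3 and 74.5 in controls, 73.6, 79.9 and 79.7 at 2 h, 112, 104 and 70.4 at 6 h, 93.8, 118 and 119 at 12 h, 164, 193 and 157 at 24 h and 245, 312 and 274 at 48 h in C418. The arrays of the lines did not overlap at any time, K354 being higher in all 6 conditions, by 0.64 ± 0.15 in log2 in controls and 1.50 ± 0.15 at 48 h, which was under 5-fold. Its change at 48 h was 2.80 ± 0.15 in K354 and 1.95 ± 0.15 in C418.

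At 48 h the difference of the responses was called positive for HOX32 alone (0.85 ± 0.21) and negative for LOC_Os02g49480 (-0.99 ± 0.25) and LOC_Os09g29820 (-0.44 ± 0.14), beside 5.15% of all probe sets positive and 2.74% negative. For LOC_Os09g29820 the negative sign stands for a larger fall in K354. The call of LOC_Os09g29820 was lost without any 1 of 25 of the 36 arrays, and those of HOX32 and LOC_Os02g49480 were kept without each of the 36. The difference of the ICE1-like gene was larger in size (-2.72 ± 0.95) but not called, its arrays being widely spread. The ICE1-like gene was called without replicate 2 of K354 at 24 h or without replicate 2 of K354 at 48 h, when 4 members in all were called negative.

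Of the other HD-Zip III genes, OSHB5 was dim in the controls of both lines, and at 48 h it was at least 1.78-fold higher in K354 and at least 3.33-fold higher in C418. HOX9 had log2 changes at 48 h of 0.63 ± 0.10 in K354 and 0.54 ± 0.10 in C418, and HOX33 of 0.38 ± 0.16 and 0.31 ± 0.16. The 2 probe sets of HOX10 differed, with 1.42 ± 0.16 and 1.56 ± 0.16 for the first and 0.45 ± 0.12 and 0.39 ± 0.12 for the second. At 24 h HOX33 split as the ICE1-like gene did, with 446, 235 and 439 in K354 and 223, 340 and 230 in C418. The second HOX10 probe set read 758, 533 and 839 in K354 at 24 h. HOX9, with 749, 711 and 745, and OSHB5, with 43.5, 40.8 and 43.2, did not split there.

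Of the members, 3 were listed as lower in cold. HOX4 (LOC_Os09g29460), an HD-Zip I gene tied in rice to gibberellin responses, read 1785, 1611 and 1442 in controls, 859.9, 852 and 903 at 2 h, 696, 597 and 883 at 6 h, 456, 499.5 and 588 at 12 h, 200.0, 226 and 207 at 24 h and 206, 221 and 157 at 48 h in K354. In C418, HOX4 read 2034, 1777 and 2013 in controls, 1404, 1712 and 1666 at 2 h, 1047, 789.9 and 1192 at 6 h, 365, 395 and 334 at 12 h, 303, 255 and 299 at 24 h and 195, 155 and 216 at 48 h. All cold arrays lay below all controls at each time in both lines. The log2 change reached -3.06 ± 0.15 in K354 and -3.37 ± 0.15 in C418 at 48 h. At 2 h the lines did not overlap, with changes of -0.88 ± 0.15 in K354 and -0.29 ± 0.15 in C418, and neither the difference of those responses (-0.60 ± 0.22) nor that at 12 h (0.76 ± 0.22) was called.

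The bZIP gene LOC_Os09g29820 read 197, 213 and 195 in controls, 100.4, 88.9 and 80.4 at 2 h, 62.5, 67.7 and 64.3 at 24 h and 35.1, 32.0 and 32.8 at 48 h in K354, and 157, 177 and 165, 75.3, 74.1 and 73.3, 49.0, 54.5 and 45.4 and 35.3, 36.2 and 41.0 at the same points in C418. Its level was down by the first sampling in both lines, with log2 changes of -1.17 ± 0.10 in K354 and -1.16 ± 0.10 in C418. At 12 h it read 94.1, 83.1 and 74.6 in K354, which overlapped the 2 h arrays. In C418 it read 59.7, 66.2 and 66.9 at 12 h, below every 2 h array. The level was lower again at 24 h and 48 h in both lines. At 48 h the change was -2.59 ± 0.10 in K354 and -2.15 ± 0.10, under 5-fold, in C418. Its SE of 0.10 was the smallest of the members.

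For LOC_Os03g26210, here called IRO3, the gene table also gives OsIRO2, a name that the list of genes with known roles held apart from OsIRO3. IRO3, a bHLH repressor of the iron deficiency response in rice, read 1054, 1021 and 2678 in controls, 3982, 2882 and 2021 at 2 h, 764, 3342 and 622 at 6 h, 563, 709.8 and 703 at 12 h, 571, 1358 and 960.3 at 24 h and 757, 926 and 422 at 48 h in K354. In C418, IRO3 read 928, 1582 and 2110.5 in controls, 2667, 1337 and 1607 at 2 h, 477, 249 and 2413 at 6 h, 772, 359.9 and 272 at 12 h, 303, 291 and 533 at 24 h and 277, 197 and 132 at 48 h. It was called only in C418 at 48 h (-2.92 ± 0.63), where all arrays lay below all controls, and in K354 the change at 48 h was -1.09 ± 0.63 and the difference of responses 1.82 ± 0.88, not called. Arrays of the same group differed widely, as at 6 h in C418, where replicate 3 read 2413 and replicate 2 read 249.

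The array-to-array differences of IRO3 ran with those of 5 iron acquisition genes. How many other probe sets of the array reach such an r was not counted, so these values do not set iron genes apart. With the group mean taken off, the deviations of IRO3 over the 36 arrays correlated with those of NAS1 and NAS2, nicotianamine synthases (Pearson r 0.92 and 0.93, Spearman rho 0.90 and 0.90), NAAT1, a nicotianamine aminotransferase (0.81 and rho 0.74), YSL15, a transporter of iron chelates (0.76 and rho 0.74), and IRT1, an iron transporter (0.70 and rho 0.67). In a two-sided permutation test that shuffled arrays within groups, the adjusted p of r over these 5 relations was 2e-05 for NAS1, NAS2 and YSL15, 0.0001 for NAAT1 and 0.0004 for IRT1, and that of rho was 2e-05, 2e-05, 5e-05, 0.0003 and 0.0006 for NAS1, NAS2, YSL15, NAAT1 and IRT1. An unadjusted p of 1e-05 is the smallest that 100000 permutations can give. Of the 11 iron symbols listed, 6 matched a single gene with a probe set, and 5 were tested. TOM1 was left out because its synonym belonged to another gene. The list was chosen with earlier results of these data known, so these p-values are not those of relations fixed in advance. Without the 2 arrays farthest from the median, K354 at 6 h replicate 2 and C418 at 6 h replicate 3, r was 0.89, 0.90, 0.73, 0.70 and 0.62 for NAS1, NAS2, NAAT1, YSL15 and IRT1. Within the lines r was 0.93 in K354 and 0.97 in C418 for NAS1, and 0.93 and 0.96 for NAS2.

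NAS2 read 272, 4399 and 115 at 6 h in K354 and 107, 95.8 and 1877 at 6 h in C418, high on the arrays where IRO3 was high. It was called lower in C418 at 12, 24 and 48 h, with a log2 change at 48 h of -2.94 ± 1.11, against -1.06 ± 1.11, not called, in K354. Of the members, LOC_Os06g06900 ran opposite to IRO3 (r -0.82), and LOC_Os01g72370 had an r of -0.66 with it, both chosen after their values were seen. On the 2 arrays named above, each of the early quartet read lower than on the other 6 h arrays of the same line.

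**Figure D4:**
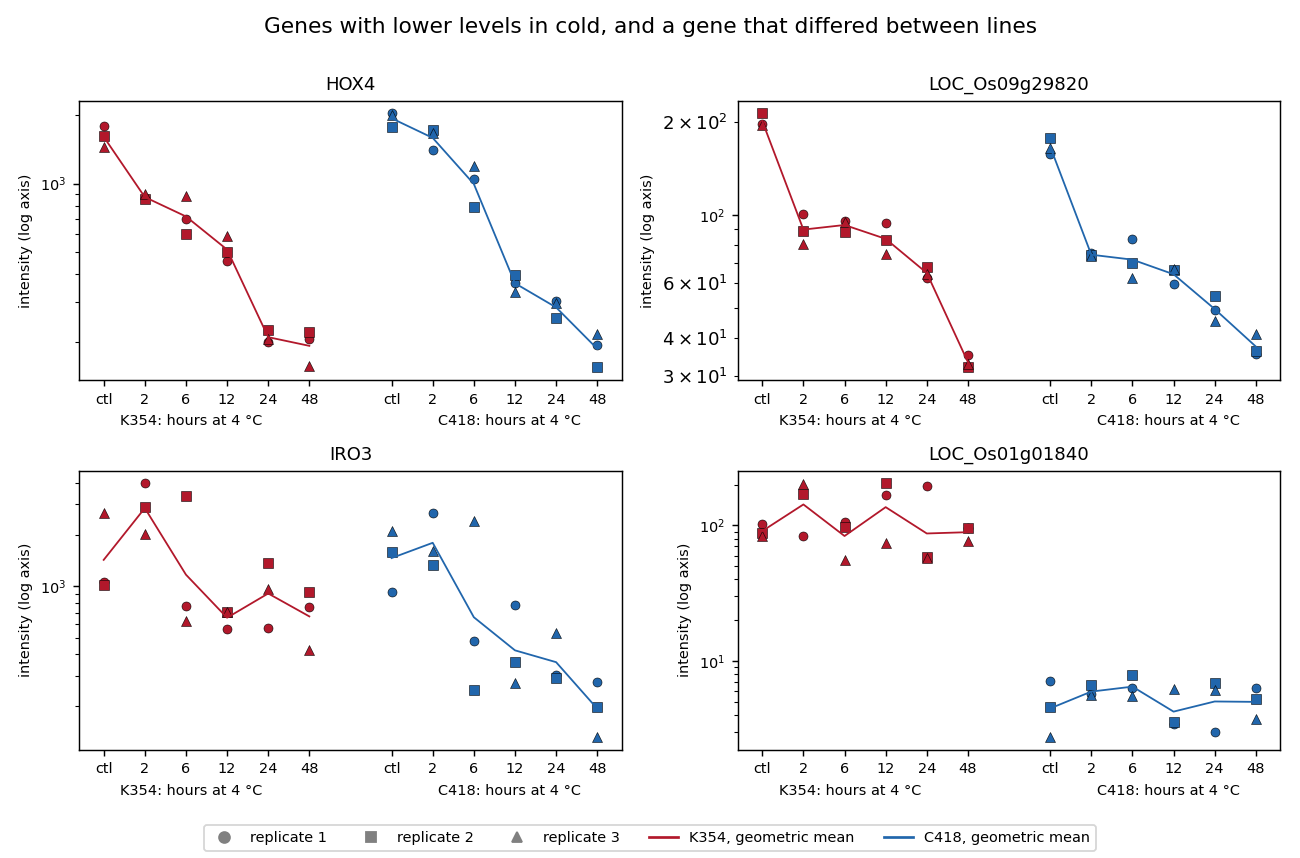
Intensity (log axis) of HOX4, LOC_Os09g29820, IRO3 and LOC_Os01g01840 on each array, with control (ctl) to 48 h of cold in K354 (left) and C418 (right); symbols are replicates and lines join geometric means. HOX4 and LOC_Os09g29820 step down with little spread in both lines, IRO3 scatters widely within groups, and LOC_Os01g01840 lies at 55.9 or above on every K354 array and at 7.86 or below on every C418 array.

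**Figure D5:**
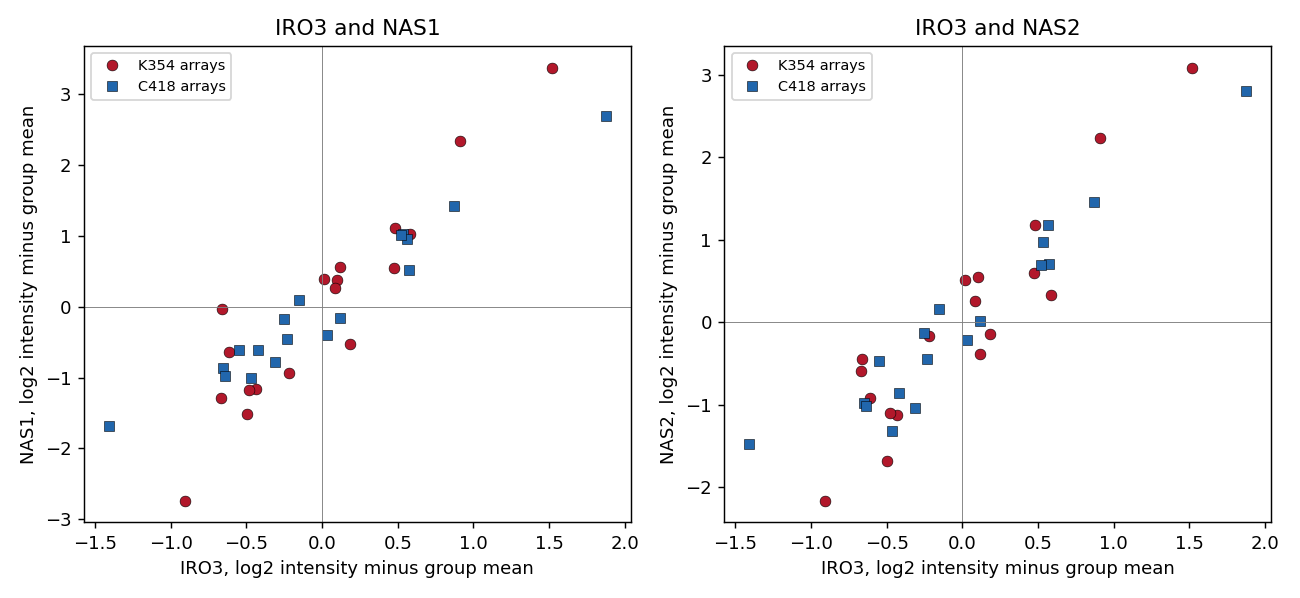
Deviation of NAS1 (left) and NAS2 (right) from the mean of their group against that of IRO3, both in log2 intensity, with 1 point for each of the 36 arrays (K354 circles, C418 squares). The points rise along a line in both panels, r 0.92 for NAS1 and 0.93 for NAS2.

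LOC_Os01g01840 was the member listed for a difference between the lines and not for cold. It ranged from 55.9 to 204 on the 18 K354 arrays and from 2.76 to 7.86, dim in every group, on the 18 C418 arrays, so the lines never overlapped. Set against the 25th percentile of the C418 arrays, K354 was at least 3.25-fold higher in controls and at least 5.44-fold higher at 2 h, where the bound was highest. With dim values set to that percentile, the gene passed 5-fold at 2 h alone. No cold change of this gene passed 2-fold in either line. A transcript that C418 lacks and a C418 sequence that the probes do not match cannot be told apart from these arrays.

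On the measured values, which in C418 were dim, this gene was the only member called higher in K354, in each of the 6 conditions, beside 0.597% of all probe sets in controls and 0.601%, 0.548%, 0.562%, 0.617% and 0.575% from 2 h to 48 h. Members called lower in K354 were LOC_Os01g72370 and LOC_Os04g23550 at 2 h (0.479% of all probe sets) and the ICE1-like gene at 48 h (0.416%), and none were in controls (0.41%) or at 6 h (0.396%), 12 h (0.435%) and 24 h (0.362%). The 2 h count was 1 without K354 replicate 2, C418 replicate 2 or C418 replicate 3 of that time. In controls, 13 of the 34 members had all K354 arrays above all C418 arrays and 3 had all below, where 19% and 16.5% of all probe sets did. At 2 h these counts were 6 and 8 (22.6% and 17.9% of all probe sets), and at 48 h they were 5 and 7 (14.6% and 10.6%).

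By locus number, 11 of the members lie on chromosome 3, 7 on chromosome 1 and 4 on chromosome 2, and the other 12 on chromosomes 4, 5, 6, 8, 9 and 11.

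Genes of the same families outside the list were found by their symbols: 72 probe sets, 39 of homeobox, 21 of bZIP and 12 of bHLH genes. None was called at 5-fold in any cold comparison, which the choice of the list partly sets, since genes past 5-fold are on it. At an adjusted p under 0.05 with no fold, 16 of the 39 homeobox probe sets stood above control and 5 below it after 48 h in K354, with 17 and 5 in C418. Of the 21 bZIP probe sets, 6 stood above and 11 below in K354, with 7 and 11 in C418. Of the 12 bHLH probe sets, 1 stood above and 2 below in K354, with 2 and 2 in C418. Of all probe sets, 23.5% stood above and 27.1% below in K354, and 25.1% above and 28.3% below in C418. Among the bZIP genes, RF2a, a relative of RF2b, had log2 changes at 48 h of -1.76 ± 0.11 in K354 and -2.16 ± 0.11 in C418, opposite to RF2b with 1.68 ± 0.29 and 2.60 ± 0.29. The abscisic acid factor bZIP23 had 1.27 ± 0.09 in K354 and 1.65 ± 0.09 in C418, TRAB1 0.22 ± 0.07 and 0.23 ± 0.07, and OBF1, also a bZIP gene, -0.35 ± 0.07 and -0.44 ± 0.07. The HD-Zip I genes looked up by symbol were 5 genes outside the list, not all of that class. HOX6 had log2 changes at 48 h of 0.53 ± 0.10 in K354 and 0.41 ± 0.10 in C418. HOX22 had 0.31 ± 0.09 and -0.01 ± 0.09, HOX13 -0.64 ± 0.13 and -0.84 ± 0.13, and HOX24, with wide errors, -0.31 ± 0.61 and -1.30 ± 0.61. The 2 probe sets of HOX5 had 0.05 ± 0.13 and 0.15 ± 0.09 in K354, and -0.62 ± 0.13 and 0.13 ± 0.09 in C418. Another homeobox gene outside the list, HOX20, had a probe set with larger changes, -1.71 ± 0.11 in K354 and -1.69 ± 0.11 in C418. That probe set is of the kind that can also take up transcripts of related genes. The other probe set of HOX20 had -0.27 ± 0.13 and -0.34 ± 0.13.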

How the data were processed

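Whole-shoot RNA of K354 and C418 was hybridized to 36 Affymetrix rice genome arrays, 3 for each of 12 groups taken from the sample labels. The authors deposited 1 intensity per probe set and array, on a linear scale. The study's methods name GCOS and the dChip invariant set for normalization and the sample records name MAS5, so which of them set the scale is not known. No column was left out (0). The 123 control probe sets of the array were set aside, and the other 57258 were fitted together on log2 intensity with limma 3.58.1 (lmFit and eBayes, R 4.3.3) in 1 model of 12 groups, with Benjamini-Hochberg adjustment over all of them. Cold and line comparisons were called at an adjusted p under 0.05 and over 5-fold, differences of responses and 48 h against 24 h at the adjusted p alone. The study itself used SAM at the same fold. Where all 3 arrays of a group lay below the 25th percentile of their array, a bound is given in place of a fold, and no difference of responses is given: the geometric mean of the brighter group over that of the dim arrays with each set to its 25th percentile.

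The members and the gene lists were chosen with earlier results of these data known. Values per array are given by a rule: members listed as lower in cold or for a line difference, in each family those with the largest changes at 48 h (6 bHLH, 3 HB and 3 bZIP), the largest differences of responses at 2 h and 48 h, and members with a known role; the rule took 17 members, and values of the other 17 were given where they showed a pattern. Of the members, 28 had a gene in the probe annotation and 14 a name. Gene names came from that annotation and a RefSeq gene table. List symbols that matched no gene or several were not used, nor was TOM1, whose synonym belonged to another gene. The fit was tested on simulated data. The 36 arrays limit the precision, and p-values measure the spread between pots. Alternatives were other scalings, thresholds, tests and filters, a replicate block and leaving out each array. Protein and promoter sequences were not used here.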

Additional observations from a re-analysis of the deposited data

Results flagged for a closer look

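The responses of the lines differed by the test of the difference itself for 7 members, given here as the log2 response of K354 minus that of C418. At 2 h it was -4.36 for LOC_Os01g72370, -3.52 for LOC_Os04g23550, -2.69 for BHLH148 and -1.92 for LOC_Os01g50940. At 48 h it was 0.85 for HOX32, -0.99 for LOC_Os02g49480 and -0.44 for LOC_Os09g29820, the last of which was lost without any 1 of 25 of the 36 arrays.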

How the results depend on the processing

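Over all times, 25 members were called in K354 and 28 in C418. Scaled to the hybridization controls these were 13 and 18, and scaled to the poly-A controls 9 and 12. At 48 h, 19 members were called higher in K354 and 25 in C418; these were 7 and 14 on the hybridization scale and 2 and 9 on the poly-A scale, and 30 in K354 at a 2-fold threshold. Members that differed between the lines numbered 4, and 11 at 2-fold. Members with a called difference of responses numbered 7, and 16 at an unadjusted p under 0.05. Of the families outside the list, limma called 0 in cold at 5-fold, also at an unadjusted p, with 19 at 2-fold, 1 from arithmetic means, 8 on the hybridization scale and 9 on the poly-A scale. Of 134 called changes of members, 45 were lost on the hybridization scale, 63 on the poly-A scale and 15 with a floor at the 25th percentile.

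Leaving out 1 array at a time gave 23 to 30 members called in K354, 28 to 29 in C418, 3 to 5 between the lines, 6 to 11 differences of responses, 10 to 18 for 48 h against 24 h and 0 to 1 of the outside families, and at 48 h 14 to 20 called higher in K354 and 24 to 26 in C418. The 11 came without K354 24 h replicate 2, and the 14 without K354 48 h replicate 2. Without K354 12 h replicate 1, 2 differences of responses were called at 12 h.

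Averaged over all pairs of groups, replicate numbers showed no pairing. Deviations of same-numbered arrays correlated with a mean r of 0.00287 over 198 pairs (from -0.50 to 0.34), and of other arrays with -0.00132 over 396. The deviations of a group cancel, so these means are tied to each other. Such an average cannot exclude a pairing of the lines within a time. By the study's methods both lines grew in the same plates, and which arrays share a plate is not known. With the number as a replicate block, the counts were 25 in K354, 28 in C418, 4 between the lines, 8 differences of responses, 12 for the second day and 0 outside the list, and at 48 h 19 and 25. The 2-fold threshold, arithmetic means and the methods' t-test were not run for the differences of responses and the second day. Dim probe sets have only a lower bound, 3 arrays a group leave wide errors for members such as BCL1, and no control matches a cold sample's time of day.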
